A study of Homo sapiens with 12 samples.

Results

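Teriflunomide and lurbinectedin were combined in SBC3 spheroids, and for each gene the joint effect on expression was compared with the sum of the effects of the single drugs. All 12 of the 12 libraries of the series entered this comparison, chosen by their treatment label alone: 3 with the label Control, 3 with Teriflunomide, 3 with Lurbinectedin and 3 with Teriflunomide/Lurbinectedin, here called the combination. All 4 groups were SBC3, an established human small cell lung cancer line grown as spheroids, so every group comes from 1 cell line. The labels used here give no dose, exposure time, order of drug addition or vehicle, and they do not say whether the 3 libraries of a group came from separate cultures. The p-values therefore measure the spread between these libraries, which may be technical.

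Teriflunomide, the active metabolite of leflunomide, inhibits DHODH, the mitochondrial enzyme that oxidises dihydroorotate in the synthesis of pyrimidines, the bases that RNA and DNA need. Lurbinectedin, an alkylating drug used in small cell lung cancer, binds the minor groove of DNA, blocks elongating RNA polymerase and leads to its degradation. Shortage of nucleotides and damage to DNA are both known to raise p53, which switches on genes for growth arrest, repair and cell death. The study's title names mitochondrial fragmentation through DRP1, the fission GTPase encoded by DNM1L, as its process of interest.

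The unit is the deposited raw read count per gene, given below as CPM, counts scaled to a common library size. A change is a log2 fold change from edgeR's quasi-likelihood test over 16683 genes, and a change counts as called where its p, adjusted by Benjamini-Hochberg over these genes, is under 0.05. The departure from additivity, or interaction, is the change from lurbinectedin to the combination minus the change from control to teriflunomide. It is 0 when teriflunomide multiplies expression by the same factor with and without lurbinectedin, below 0 when the combination lies under that product and above 0 when it lies over it. CPM values are not divided by gene length, so levels are compared between groups and not between genes.

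Libraries held 23206414 to 33222162 counts. Genes of the mitochondrial genome took 6.26% to 7.17% of counts in control libraries and 13.8% to 17.05% with lurbinectedin. They took 8.42% and 8.43% in teriflunomide replicates 1 and 2 but 22.6% in replicate 3, and 14.6% and 13.1% in combination replicates 1 and 3 but 24.9% in replicate 2. These 2 libraries stand apart from their groups. A second fit of the other 10 libraries, called the 10-library fit below, therefore stands beside the results that differ in it. The 2 libraries were left out after their values were seen, which can shrink the spread within their groups and make p too small. Adjusted p-values and calls of the 10-library fit are therefore given as a description and not as a second test. The small cell markers were mixed: SYP lay between 14.1 and 36.2 CPM and YAP1 between 60.2 and 343 CPM, whereas INSM1, GRP and UCHL1 had no counts and POU2F3 and NCAM1 were at most at 0.341 CPM. PTPRC, CD3E, LYZ, PECAM1, VWF and DCN, markers of blood, endothelial and stromal cells, did not exceed 0.545 CPM in any library. Other listed stromal markers were higher: COL1A1 lay between 93.6 and 272 CPM, COL1A2 between 89.9 and 276 CPM and ACTA2 between 12.5 and 30.5 CPM. COL3A1 was at most at 1.3 CPM. The stromal markers were thus mixed. The summed level of the 15 listed markers of other cell types, most of it collagen, was 535.5 to 564.6 CPM in control, 498 to 513.6 CPM with teriflunomide, 209.1 to 240.5 CPM with lurbinectedin and 222.1 to 254.3 CPM in the combination. In bulk RNA, fewer cells with a transcript and less of it per cell cannot be told apart.

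The departure from additivity passed the test for 43 of 16683 genes (0.258%). In 37 of them (0.222% of genes tested) the combination lay below the sum of the single-drug effects, and in 6 (0.036%) above it. All 37 had risen with teriflunomide alone and all 6 had fallen with it, so each departure was opposite in sign to the change that teriflunomide made on its own. The change from control to teriflunomide enters the departure with a minus sign, so this opposition is partly fixed by the contrast, and the values that follow describe the 43 genes without a further test. Without lurbinectedin their teriflunomide change had a median size of 1.21 on the log2 scale, with a range of 0.57 to 4.06. From lurbinectedin to the combination the same 43 genes moved between -0.69 and 0.35, with a median size of 0.125, and 0 of them were called. Teriflunomide and control libraries did not overlap for any of the 43, against 36.8% of all genes tested, while combination and lurbinectedin libraries overlapped for 32 and did not for 11, against 23.7% without overlap among all genes. At an unadjusted p under 0.05 the departure was negative for 845 genes (5.07%) and positive for 881 (5.28%), and its median over all genes was 0.02.

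**Figure D1:**
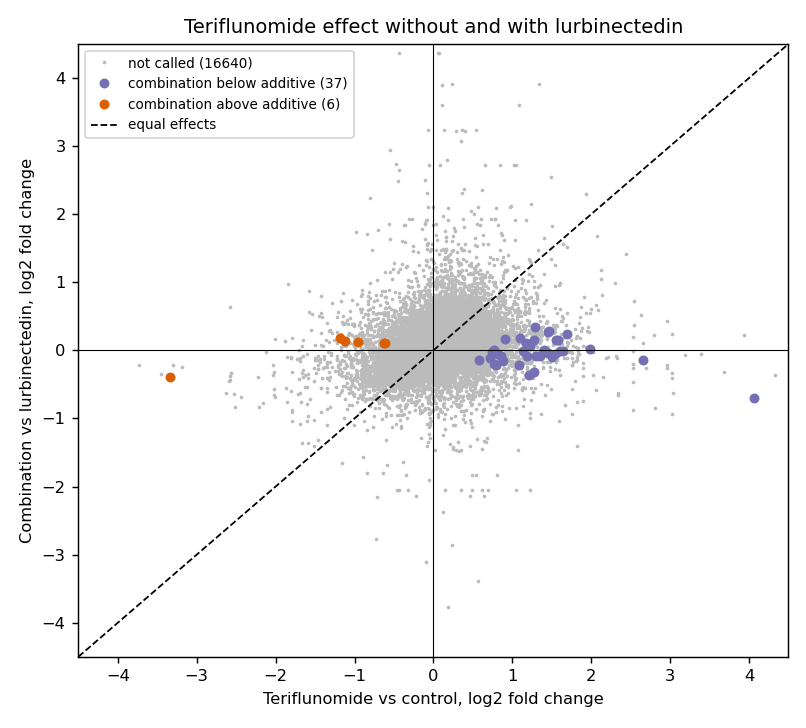
Each point is 1 of 16683 genes, with the log2 change from control to teriflunomide on the horizontal axis and the log2 change from lurbinectedin to the combination on the vertical axis. The dashed line marks equal effects, on which a gene is additive. The 43 called genes lie along the horizontal line at 0: their teriflunomide changes reach from the 6 falls at the left to the 37 rises at the right, while their changes on top of lurbinectedin stay between -0.69 and 0.35.

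The number of calls and their balance between the directions depended on single libraries. Leaving out 1 library at a time gave 6, 2 and 2 calls without control replicates 1, 2 and 3, 29, 24 and 616 without teriflunomide replicates 1, 2 and 3, 2, 6 and 2 without lurbinectedin replicates 1, 2 and 3, and 12, 66 and 33 without combination replicates 1, 2 and 3. Without both teriflunomide replicate 3 and combination replicate 2, the 2 libraries with the high mitochondrial share, 1839 genes were called, 843 below and 996 above additivity, and all 43 were among them. The share of calls above additivity was 14% with all libraries, 40.3% without teriflunomide replicate 3, 37.9% without combination replicate 2 and 54.2% in the 10-library fit. In that fit 10.9% of 16945 genes were called, 4.97% lower and 5.88% higher. All 43 departures kept their sign in every one of these fits. The 43 were chosen for their departures in all libraries, and each fit reuses most of these, so kept signs are no separate support. The 1796 further genes of the 10-library fit had a median change of size 0.228 with teriflunomide alone and 0.341 on top of lurbinectedin, and for 1032 of them the second was the larger. In the same fit the 43 had median sizes of 1.24 and 0.157, and the second was the larger for 0 of them.

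**Figure D2:**
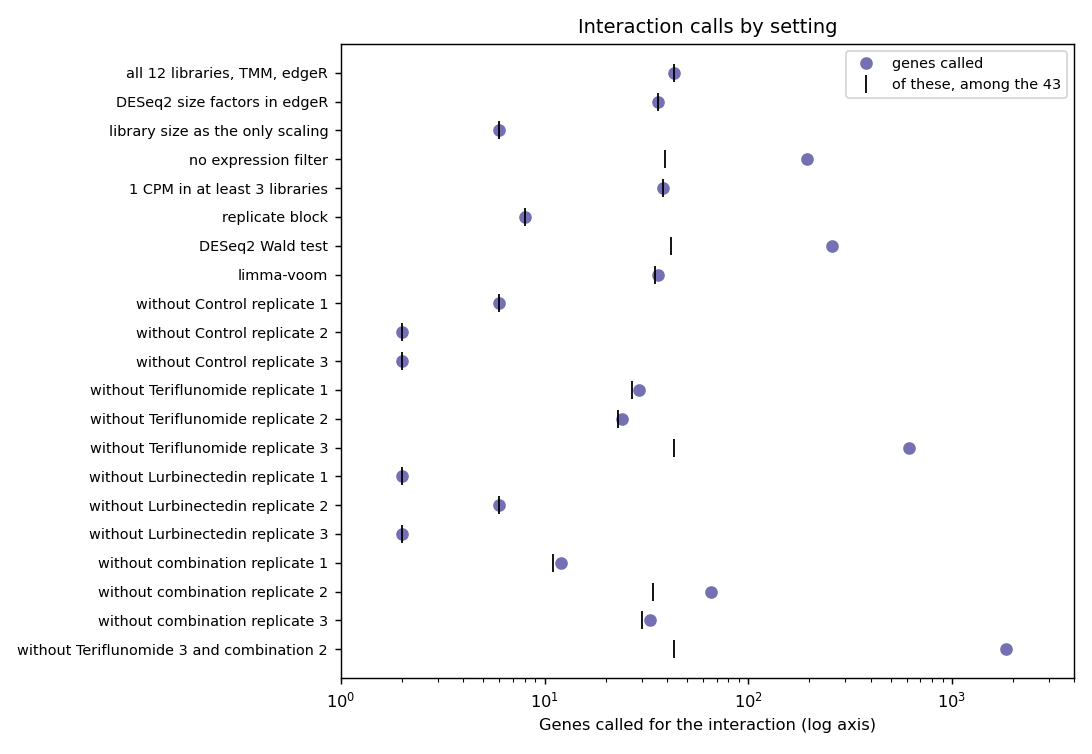
Number of genes called for the departure from additivity (log axis) in the fit of all 12 libraries and under each other scaling, filter, test or set of libraries. Circles give all calls and bars give those among the 43 genes. The count runs from 2 without any of several single control or lurbinectedin libraries to 1839 without teriflunomide replicate 3 and combination replicate 2, where all 43 are still called.

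The list with the most called genes was that of p53 targets. Of 26 listed p53 targets, all tested, 6 were called below additivity (BTG2, RPS27L, SESN1, TP53INP1, FAS and GADD45A) and 0 above. Of the 26, 18 had an unadjusted p under 0.05 below additivity (all genes: 5.07%). The departure was negative for all 26, with a median of -0.83 (quartiles -1.01 and -0.49), beside 0.02 over all genes tested. Teriflunomide alone raised 16 of the 26 (all genes: 3.88% called higher), with a median change of 0.84, and lurbinectedin alone raised all 26 (all genes: 36% called higher), with a median of 2.47. From lurbinectedin to the combination their median change was -0.01 and 0 were called. The median departure stayed between -0.88 and -0.76 when any 1 library was left out. It was -0.85 in the 10-library fit, where 21 of the 26 were called, all below additivity (all genes: 4.97%).

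BTG2, an antiproliferative gene induced by p53 (chr1:203305491-203309602, GRCh38), was measured at 31.7, 29.2 and 32.4 CPM in the control libraries, 72.2, 80.7 and 76.1 CPM with teriflunomide, 717, 659.8 and 683 CPM with lurbinectedin and 601, 753 and 589.8 CPM with the combination. Teriflunomide libraries all lay above control libraries, and the combination libraries spread around those of lurbinectedin. The log2 change with teriflunomide was 1.29 without lurbinectedin and -0.08 with it, a departure of -1.38 (SE 0.148, adjusted p = 0.00228). Added log2 effects would put the combination at 1685 CPM, against the observed 648 ± 91.03 CPM (SD, n = 3). BTG2 alone among the 43 was called in each of the 20 alternative fits.

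SESN1, a sestrin that restrains mTOR signalling, read 37.6, 37.3 and 35.4 CPM in control, 70.6, 68.03 and 60.5 CPM with teriflunomide, 219, 211 and 205 CPM with lurbinectedin and 202, 216 and 184 CPM with both drugs. The teriflunomide libraries stood above control without overlap, and the combination libraries overlapped those of lurbinectedin. Its departure was -0.93 (SE 0.135, adjusted p = 0.0138), from a teriflunomide change of 0.85 without lurbinectedin and -0.08 with it.

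RPS27L, a p53-induced relative of a ribosomal protein, stood at 38.7, 39.6 and 36.1 CPM in control, 72.8, 70.4 and 67.5 CPM with teriflunomide, 168, 161 and 165 CPM with lurbinectedin and 159, 151 and 132 CPM with the combination. Each combination library lay below each lurbinectedin library, yet the change between these groups, -0.16, was not called (adjusted p = 0.421). The departure was -1.04 (SE 0.133, adjusted p = 0.00996). RPS27L overlaps LACTB on the opposite strand, and since no source used here states whether counting used strand, reads of this pair may mix.

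FAS, the death receptor that triggers apoptosis, gave 8.81, 8.72 and 8.603 CPM in control, 18.8, 18.5 and 21.6 CPM with teriflunomide, 69.5, 73.3 and 66.5 CPM with lurbinectedin and 81.4, 82.1 and 62.95 CPM with the combination. Teriflunomide alone more than doubled FAS, a change of 1.17, while combination replicates 1 and 2 lay above and replicate 3 below all lurbinectedin libraries. The departure of FAS was -1.06 (SE 0.172, adjusted p = 0.0196). ACTA2, smooth muscle actin, is the neighbour of FAS on the opposite strand and overlaps it. It read 12.5, 14.5 and 13.7 CPM in control, 27.3, 29.7 and 30.5 CPM with teriflunomide, 21.6, 21.4 and 19.5 CPM with lurbinectedin and 26.8, 23.3 and 20.99 CPM with the combination, and its departure was -0.91 (adjusted p = 0.0444). In both genes the teriflunomide libraries stood above control and the combination libraries overlapped those of lurbinectedin, and with unstated strand use their counts cannot be treated as independent. ACTA2 is also on the list of markers of other cell types, whose summed level, given above, was lower in the teriflunomide than in the control libraries.

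GADD45A, a gene of growth arrest after DNA damage, varied widely between the combination libraries. It was at 8.45, 9.49 and 7.32 CPM in control, 18.4, 19.7 and 26.2 CPM with teriflunomide, 303, 268 and 270.3 CPM with lurbinectedin and 239, 352 and 205 CPM with the combination. Combination replicate 2, the library with the high mitochondrial share, held the highest value and the other two lay below all lurbinectedin libraries. The departure was -1.43 (SE 0.264, adjusted p = 0.0444). TP53INP1, a p53-induced protein of the stress response, was the 1 gene of the 6 whose combination libraries, at 251, 247 and 216 CPM, all lay above its lurbinectedin libraries, at 178, 204 and 178 CPM. Its teriflunomide change was 1.29 without lurbinectedin and 0.35 with it (unadjusted p = 0.00498, adjusted p = 0.175), a departure of -0.94 (adjusted p = 0.0193). TP53INP1 overlaps NDUFAF6 on the opposite strand.

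Other p53 targets in the list passed the adjusted threshold for the departure in the 10-library fit and not with all 12 libraries. CDKN1A, the cell cycle inhibitor p21, had a departure of -1.05 (adjusted p = 0.169) from teriflunomide changes of 0.94 and -0.11, and -1.31 (adjusted p = 3.3e-07) in the 10-library fit. MDM2, the ubiquitin ligase that degrades p53, had -0.77 (adjusted p = 0.1599), and BBC3, the pro-apoptotic PUMA, had -1.18 (adjusted p = 0.172). Their departures in the 10-library fit were -0.77 (adjusted p = 0.00611) and -1.32 (adjusted p = 1.1e-04). Among the 43 but outside the list were ACER2, an alkaline ceramidase, DRAM1, a lysosomal protein of autophagy, and the noncoding RNA PINCR, each known as p53-induced. ACER2 read 1.78, 2.51 and 2.75 CPM in control, 5.598, 6.89 and 8.18 CPM with teriflunomide, 64.8, 59.9 and 60.4 CPM with lurbinectedin and 59.05, 68.7 and 50.2 CPM with the combination, a departure of -1.60 (SE 0.248, adjusted p = 0.0168). The gene ENSG00000260912.1, which has no symbol and lies next to ACER2 on chromosome 9, had a departure of -1.49 (adjusted p = 0.0167). DRAM1 had a departure of -0.77 (adjusted p = 0.0444). PINCR was counted 1, 0 and 0 times in the control libraries, 9, 9 and 6 times with teriflunomide, 9, 15 and 15 times with lurbinectedin and 9, 5 and 13 times with the combination. These are among the lowest counts of the 43, and the fitted departure of PINCR, -4.76, depends on a control level near 0 and is no bound.

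The RefSeq promoter table matched 28 of the 43 genes, and the 250 bases before each start (GRCh38.p14) were searched on both strands. The single-repeat form of the p53 binding motif was found in the windows of 5 genes (RPS27L, HSPA2, ABCA12, ACTA2 and MR1), against 5.53% of all 27305 windows of the same length. TGANTCA, a loose form of the AP-1 motif that allows any middle base, was in 3 (TNFRSF9, ECM1 and FAS), against 6.6% of all windows. The match read TGAGTCA in TNFRSF9 and TGAATCA in FAS, and ECM1 held both. TGACGTCA, the cyclic AMP response motif, was in 1 (JUND), against 1.77%. The CArG box, the motif of serum response factor, was in 0, against 1.14%. A match is a run of letters and does not show that a factor binds there. The windows of ACTA2, MR1 and JUND are shown as examples of windows with the p53 or the cyclic AMP letters. They run 5′ to 3′ on the gene's strand, with the matched motif in capitals. They cover chr10:88991338-88991587 on the minus strand for ACTA2, chr1:181033137-181033386 on the plus strand for MR1 and chr19:18281623-18281872 on the minus strand for JUND. The window of FAS, on the plus strand, covers chr10:88990548-88990797, so the ACTA2 window lies downstream of the FAS start and its p53 letters cannot be assigned to ACTA2 alone.
ACTA2: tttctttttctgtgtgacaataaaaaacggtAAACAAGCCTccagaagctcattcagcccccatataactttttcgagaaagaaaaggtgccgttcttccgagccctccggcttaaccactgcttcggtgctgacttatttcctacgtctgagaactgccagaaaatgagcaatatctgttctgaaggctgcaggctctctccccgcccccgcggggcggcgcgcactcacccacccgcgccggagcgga
MR1: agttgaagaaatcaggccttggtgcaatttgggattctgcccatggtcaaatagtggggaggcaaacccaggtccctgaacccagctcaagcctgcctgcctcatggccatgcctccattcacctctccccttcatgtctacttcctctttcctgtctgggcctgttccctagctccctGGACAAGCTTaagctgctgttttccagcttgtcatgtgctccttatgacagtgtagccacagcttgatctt
JUND: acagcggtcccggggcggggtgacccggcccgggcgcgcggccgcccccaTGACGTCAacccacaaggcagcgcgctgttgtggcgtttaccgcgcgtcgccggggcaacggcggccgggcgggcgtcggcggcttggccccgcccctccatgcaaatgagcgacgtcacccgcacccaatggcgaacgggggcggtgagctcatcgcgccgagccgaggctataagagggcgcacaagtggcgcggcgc
MR1, which presents microbial metabolites to T cells, read 1.64, 1.57 and 1.28 CPM in control, 3.43, 3.14 and 3.85 CPM with teriflunomide, 18.9, 23.3 and 22.7 CPM with lurbinectedin and 24.9, 21.2 and 23.4 CPM with the combination. The combination libraries overlapped those of lurbinectedin, and the departure was -1.11 (SE 0.208, adjusted p = 0.0454).

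Genes of the AP-1 family and of feedback on MAP kinase signalling formed the next group. JUN, a subunit of AP-1 (chr1:58776845-58784048), was at 3.59, 4.04 and 4.18 CPM in control, 9.55, 9.28 and 8.11 CPM with teriflunomide, 213, 185 and 195 CPM with lurbinectedin and 178, 225 and 159.9 CPM with the combination. Teriflunomide libraries lay above control without overlap, at a level far under that of either lurbinectedin group, and the lurbinectedin libraries lay inside the range of the combination. The departure of JUN was -1.27 (SE 0.1901, adjusted p = 0.0167), and added log2 effects would give 451 CPM. JUND, another subunit of AP-1, whose promoter window is printed above, read 29.4, 31.6 and 31.8 CPM in control, 47.5, 48.2 and 42.2 CPM with teriflunomide, 144, 138 and 151 CPM with lurbinectedin and 132, 134 and 128 CPM with the combination, with a departure of -0.71 (adjusted p = 0.0434). ATF3, a stress-induced transcription factor of the same structural family, rose with teriflunomide alone by 0.79 and had -0.22 on top of lurbinectedin, a departure of -1.01 (adjusted p = 0.0475). These 3 were the called members among 20 listed immediate early and AP-1 genes, whose median departure was -0.04. FOS had -0.66 (adjusted p = 0.5399), JUNB -0.11 and EGR2 1.22, and none of these passed the test with all libraries. In the 10-library fit the median of the list was -0.24 and 9 were called (all genes: 10.9%), 8 of them below additivity. Those below included FOS with -1.13 (adjusted p = 0.00384) and JUNB with -0.39 (adjusted p = 0.0367), and EGR2 lay above additivity with 1.496 (adjusted p = 0.0486).

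DUSP6, the phosphatase that inactivates ERK (chr12:89347235-89352501), read 6.33, 5.35 and 5.497 CPM in control, 19.9, 18.8 and 16.6 CPM with teriflunomide, 12.6, 13.1 and 14.4 CPM with lurbinectedin and 17.7, 16.8 and 12.9 CPM with the combination. Either drug alone raised DUSP6, and the combination libraries overlapped those of both. Its departure was -1.46 (SE 0.203, adjusted p = 0.0117), and on the scale of CPM differences the combination also lay -10.4 CPM from the sum (SE 1.88). Of 17 MAP kinase feedback genes tested, DUSP6 was the 1 called, and the median departure was -0.43. Below additivity 8 had an unadjusted p under 0.05 (all genes: 5.07%), and 0 above. SPRY1, a Sprouty inhibitor of receptor signalling, had -0.80 (adjusted p = 0.09004), and DUSP4 had -0.76 (adjusted p = 0.172). The median of the list was -0.51 in the 10-library fit, and 10 of the 17 were called, all below additivity (all genes: 4.97%). The 10 included SPRY1 with -0.94 (adjusted p = 2.0e-04) and DUSP4 with -0.73 (adjusted p = 0.00213). RGS2, which switches off G protein signalling, stood at 10.6, 10.6 and 9.59 CPM in control, 21.2, 20.5 and 23.5 CPM with teriflunomide, 81.02, 73.3 and 70.5 CPM with lurbinectedin and 60.5, 74.9 and 58.7 CPM with the combination, a departure of -1.29 (SE 0.1703, adjusted p = 0.00996). INKA2, an inhibitor of the kinase PAK4, had a departure of -1.16 (adjusted p = 0.0138), and it overlaps RAP1A and DDX20 on the opposite strand.

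NECTIN4, an adhesion molecule of epithelia and a target of antibody-drug conjugates (chr1:161070998-161089558), had the smallest p of all genes. It was at 2.28, 2.44 and 2.54 CPM in control, 6.95, 7.46 and 7.802 CPM with teriflunomide, 70.5, 72.05 and 76.8 CPM with lurbinectedin and 71.2, 67.3 and 80.2 CPM with the combination. The 3 teriflunomide libraries clustered about their mean of 7.401 ± 0.4303 CPM (SD, n = 3), above all control libraries, and the range of the combination libraries enclosed that of lurbinectedin. The departure was -1.61 (SE 0.161, adjusted p = 0.00166), and NECTIN4 was called in 19 of the 20 alternative fits.

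GRHL3, a grainyhead transcription factor of epithelia, was barely detected in control at 0.134, 0.167 and 0.179 CPM. It read 0.674, 0.569 and 0.716 CPM with teriflunomide, 6.64, 6.57 and 6.87 CPM with lurbinectedin and 6.95, 6.196 and 7.28 CPM with the combination. Its departure was -1.96 (SE 0.298, adjusted p = 0.0167), and GRHL3 overlaps STPG1 on the opposite strand. NECTIN4 and GRHL3 were the 2 called among 11 tested genes of the epithelial list, whose median departure was -0.17, -0.54 without teriflunomide replicate 3 and -0.03 without teriflunomide replicate 1.

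TNFRSF9, a costimulatory receptor of the TNF receptor family, read 1.51, 1.204 and 1.17 CPM in control, 2.697, 3.71 and 2.96 CPM with teriflunomide, 17.3, 14.6 and 15.99 CPM with lurbinectedin and 12.3, 13.4 and 12.9 CPM with the combination. Here every combination library lay below every lurbinectedin library, a change of -0.31 that was not called (unadjusted p = 0.0427, adjusted p = 0.305). The departure was -1.59 (SE 0.223, adjusted p = 0.0117). CEMIP2, a cell-surface hyaluronidase, had a departure of -1.13 (SE 0.154, adjusted p = 0.0113) from levels of 19.7 ± 1.71 CPM in control, 47.7 ± 4.14 CPM with teriflunomide, 59.3 ± 2.35 CPM with lurbinectedin and 65.7 ± 4.47 CPM in the combination (SD, n = 3). ECM1, a secreted matrix protein, read 6.43, 6.22 and 7.11 CPM in control, 21.1, 22.9 and 13.9 CPM with teriflunomide, 91.9, 98.7 and 102 CPM with lurbinectedin and 108, 101 and 116 CPM with the combination. Teriflunomide replicate 3 gave the lowest of the 3 teriflunomide values, and the departure of ECM1 was -1.40 (adjusted p = 0.0168).

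LIF, a cytokine that signals through STAT3, had a departure of -1.65 (adjusted p = 0.0314) and was the 1 called of 17 tested NF-kB genes and cytokines. The median departure of that list was 0.11 with all libraries, -0.03 without teriflunomide replicate 3 and -0.07 in the 10-library fit. In that fit 4 were called below additivity (all genes: 4.97%), among them ICAM1, an adhesion molecule for leukocytes, with -0.76 (adjusted p = 0.00433). DRAXIN, a secreted axon guidance protein, read 3.52, 3.11 and 3.46 CPM in control, 9.47, 11.7 and 9.13 CPM with teriflunomide, 55.1, 65.9 and 72.8 CPM with lurbinectedin and 77.9, 58.6 and 79.5 CPM with the combination, a departure of -1.43 (SE 0.2202, adjusted p = 0.0168). APOBEC3C, a cytidine deaminase that restricts viruses and retroelements, had a departure of -0.87 (SE 0.133, adjusted p = 0.0168). CLU, the extracellular chaperone clusterin, had -0.77 (adjusted p = 0.03402), and HSPA2, a member of the HSP70 family, -0.97 (adjusted p = 0.0232).

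In 33 of the 37 genes below additivity lurbinectedin alone raised expression (all genes: 36% called higher), in 26 of them at least 4-fold. The median lurbinectedin change of the 37 was 2.87. The remaining 4, SERPINE2, ACAT2, UTS2 and ENSG00000256915.2, rose with teriflunomide alone while their lurbinectedin change was not called. SERPINE2, a secreted inhibitor of serine proteases (chr2:223975045-224039318), was at 16.1, 16.7 and 16.2 CPM in control, 43.9, 46.2 and 44.5 CPM with teriflunomide, 18.9, 18.3 and 19.3 CPM with lurbinectedin and 26.2, 20.8 and 21.4 CPM with the combination. The teriflunomide libraries stood clear of all other libraries, and the combination libraries, though all above those of lurbinectedin, lay nearer to these than to the teriflunomide libraries. The teriflunomide change was 1.46 without lurbinectedin and 0.27 with it (unadjusted p = 0.0281, adjusted p = 0.273), and the departure was -1.18 (SE 0.157, adjusted p = 0.00996).

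ACAT2, the cytosolic thiolase that opens the sterol pathway, read 112, 112 and 106 CPM in control, 184, 162 and 197 CPM with teriflunomide, 102, 104 and 104 CPM with lurbinectedin and 94.2, 93.4 and 99.5 CPM with the combination. Here the combination lay below all lurbinectedin and all control libraries, with a departure of -0.83 (SE 0.1303, adjusted p = 0.0168). ACAT2 overlaps TCP1 on the opposite strand. UTS2, which encodes the vasoactive peptide urotensin, had 5.29, 4.75 and 4.36 CPM in control, 9.76, 10.8 and 12.8 CPM with teriflunomide, 4.17, 3.21 and 3.74 CPM with lurbinectedin and 2.97, 3.37 and 2.297 CPM with the combination, a departure of -1.58 (adjusted p = 0.0172), and it overlaps PER3 on the opposite strand. In both genes the teriflunomide libraries alone stood high.

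Among the 6 genes above additivity, 4 were lowered by each drug alone: CHKA, LINC00641, BNIP3 and LIN28A. CHKA, the choline kinase that starts phosphatidylcholine synthesis (chr11:68052859-68121444), read 50.1, 51.3 and 50.8 CPM in control, 29.5, 26.9 and 21.8 CPM with teriflunomide, 26.7, 29.5 and 28.9 CPM with lurbinectedin and 31.4, 28.7 and 32.7 CPM with the combination. Each drug alone brought CHKA well below control, and the combination libraries overlapped those of either drug. The changes were -0.96 with teriflunomide and -0.84 with lurbinectedin, the departure was 1.08 (SE 0.1697, adjusted p = 0.0168), and added log2 effects would give 14.6 CPM, against the observed 30.9 ± 2.05 CPM (SD, n = 3). Of 15 tested genes of the CDP-choline and CDP-ethanolamine pathways CHKA was the 1 called. Above additivity 3 had an unadjusted p under 0.05 (all genes: 5.28%), and 0 below. The median departure was 0.18 (0.06 without teriflunomide replicate 3). It was 0.14 in the 10-library fit, where SLC44A1, a choline transporter, was called too, with 0.74 (adjusted p = 0.00904). GPCPD1, which releases choline from glycerophosphocholine, departed the other way: it rose with either drug, by 0.91 and 0.87, with a departure of -0.74 (adjusted p = 0.0346).

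BNIP3, a hypoxia-induced receptor for mitophagy on the outer mitochondrial membrane (chr10:131966455-131982013), was at 175, 176 and 170.0 CPM in control, 104, 113 and 119.8 CPM with teriflunomide, 124, 124 and 118 CPM with lurbinectedin and 132, 136 and 125 CPM with the combination. All combination libraries lay above all lurbinectedin libraries and below all control libraries, with a departure of 0.73 (SE 0.121, adjusted p = 0.0219). Of 28 tested hypoxia and glycolysis genes BNIP3 was the 1 called. Above additivity 6 had an unadjusted p under 0.05 (all genes: 5.28%), and 0 below. The median departure was 0.27 (0.17 without teriflunomide replicate 3). Teriflunomide alone lowered 10 of these 28 (all genes: 2.13% called lower), with a median change of -0.43, and the median from lurbinectedin to the combination was -0.17. HK2, a hexokinase of glycolysis, fell with teriflunomide alone, a change of -0.71, and had -0.26 on top of lurbinectedin, a departure of 0.44 (adjusted p = 0.184). LDHA, lactate dehydrogenase, had the corresponding values -0.71, -0.29 and 0.42 (adjusted p = 0.2595). In the 10-library fit 4 of the 28 were called above additivity (all genes: 5.88% called higher), a count too small to read as a result about the list. They were BNIP3, HK2 with 0.45 (adjusted p = 0.00613), LDHA with 0.38 (adjusted p = 0.0128) and PFKP, a phosphofructokinase, with 0.57 (adjusted p = 0.00415).

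LIN28A, an RNA-binding protein that blocks maturation of let-7 miRNAs, read 315, 332 and 322 CPM in control, 218, 209.8 and 203 CPM with teriflunomide, 157, 141 and 165 CPM with lurbinectedin and 162, 157 and 178 CPM with the combination. The combination libraries overlapped those of lurbinectedin, and the departure was 0.72 (SE 0.127, adjusted p = 0.0314). LINC00641, a long noncoding RNA, read 42.1, 44.7 and 44.3 CPM in control, 16.2, 19.3 and 21.98 CPM with teriflunomide, 17.8, 19.00 and 15.8 CPM with lurbinectedin and 19.1, 24.7 and 16.02 CPM with the combination, a departure of 1.37 (adjusted p = 0.0196). The lurbinectedin change was not called for the other two genes above additivity. Of these, ENSG00000279207.1 had a departure of 1.26 (adjusted p = 0.0196). SNORD3B-1, a copy of the U3 small nucleolar RNA with near-identical relatives, was counted 51, 66 and 60 times in control, 9, 9 and 0 times with teriflunomide, 53, 63 and 101 times with lurbinectedin and 55, 57 and 72 times with the combination, so its departure of 2.95 is uncertain.

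**Figure D3:**
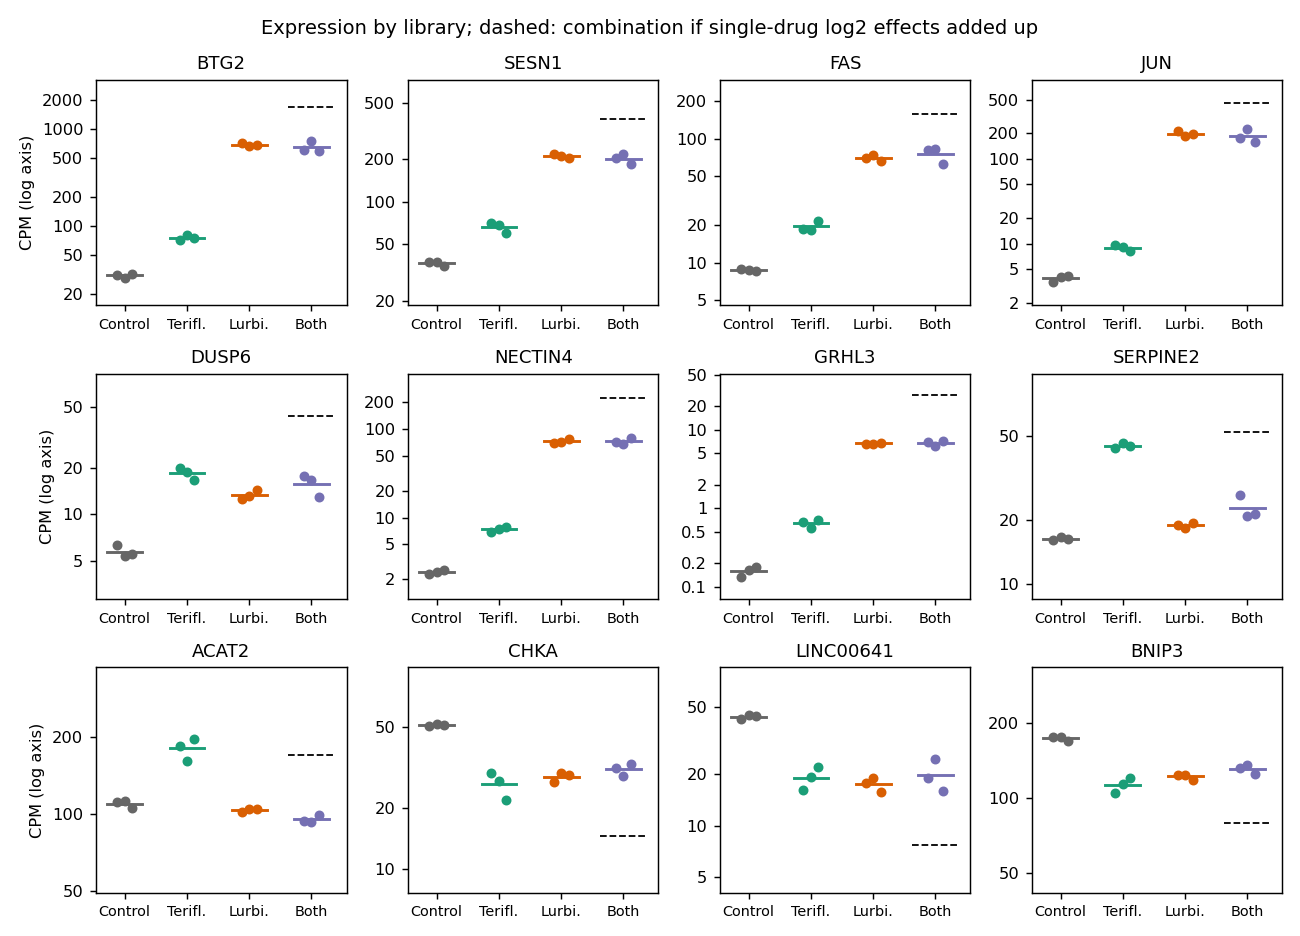
CPM (log axis) of 12 genes in each of the 12 libraries, with a bar at each group mean and a dashed line at the level the combination would have if the log2 effects of the single drugs added up. In the 9 genes from BTG2 to ACAT2 the combination libraries lie below the dashed line, and in CHKA, LINC00641 and BNIP3 above it. In each panel the combination libraries sit near the lurbinectedin libraries.

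How far the combination departs depends on the scale on which effects are added. Against added log2 effects, the mean observed combination level of the 35 genes below additivity with at least 5 CPM in their highest group was 25% to 61.2% of the expected level, with a median of 44%. That of the 5 such genes above additivity was 165% to 259%, with a median of 212%. PINCR, at 2.76%, ENSG00000261804.2, at 14.3%, and SNORD3B-1, at 823%, lie outside these ranges and have low counts, so their percentages are uncertain. Against added CPM differences, the departure kept its sign in 35 of the 37 and was over 2 SE in 21 of these, and it turned positive for DRAXIN and TP53INP1. NECTIN4 is an example of a departure within the error on that scale: -5.22 CPM (SE 4.24) against an expected 78.1 CPM. APOBEC3C, SESN1 and RPS27L had differences of -46.97 CPM (SE 7.96), -40.5 CPM (SE 10.7) and -49.4 CPM (SE 8.49) on the same scale. The 4 genes that lurbinectedin did not raise kept large departures, with -24.6 CPM (SE 1.88) for SERPINE2 and -79.1 CPM (SE 10.8) for ACAT2. All 6 genes above additivity stayed above by over 2 SE, for example CHKA by 27.2 CPM (SE 2.72) and LIN28A by 124 CPM (SE 11.5).

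**Figure D4:**
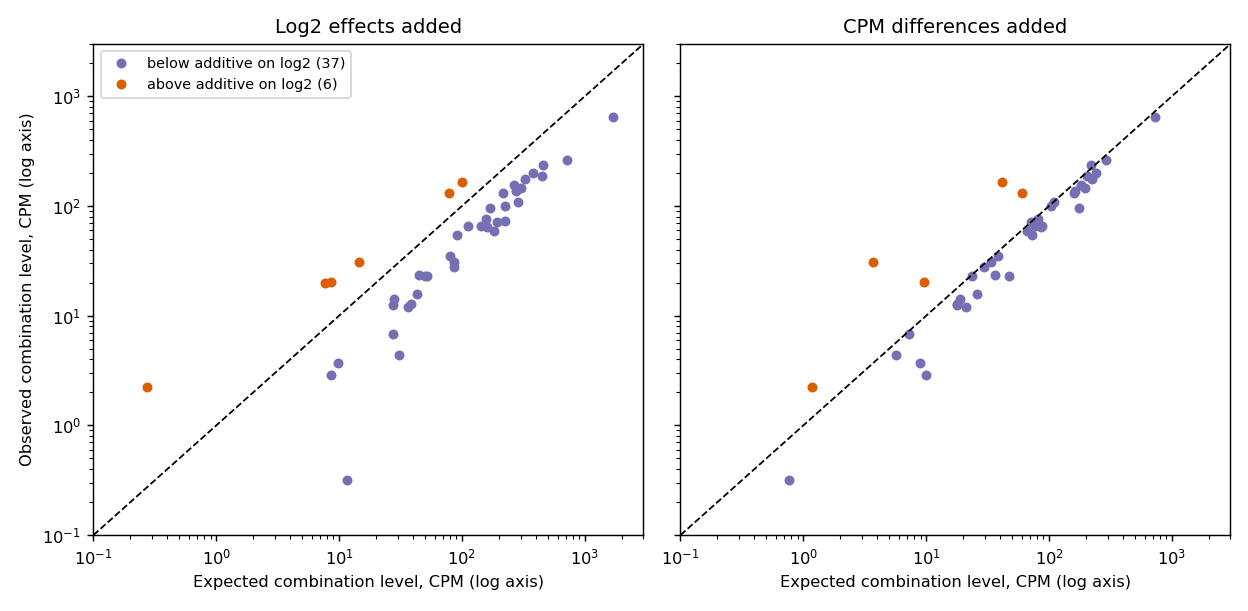
Observed mean combination level of the 43 genes against the level expected when log2 effects are added (left) or CPM differences are added (right), both axes logarithmic in CPM. The dashed line marks equality. At the left the 37 genes lie under the line, 35 of them at 25% to 61.2% of the expected level, and the 6 lie over it. At the right most of the 37 move close to the line, and 5 of the 6 upper genes are drawn because the expected level of LINC00641 is not above 0.

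The single-drug contrasts put the 43 genes in context. Teriflunomide alone changed 1002 genes (6.01%), 647 upward and 355 downward, whereas from lurbinectedin to the combination 0 genes were called by edgeR (smallest adjusted p 0.145), with 2599 genes at an unadjusted p under 0.05. DESeq2 called 584 genes for that second contrast, and edgeR called 2067 without teriflunomide replicate 3, 259 without combination replicate 2 and 3640 without both. The 1002 genes were chosen by their change from control to teriflunomide, with a spread estimated from all 12 libraries. Choice by that change tends to make it too large, so smaller values on top of lurbinectedin are partly built in. The change to the combination was read in the other 6 libraries, which are not fully separate from the choice. In those, the 647 genes that rose had a median change of 0.18, against 0.78 without lurbinectedin, and 505 (78.1%) were again positive, against 53.3% of all genes. The 355 that fell had a median of -0.20, against -0.63, and 285 (80.3%) were again negative. The number that teriflunomide alone changed was 216 to 1555 when 1 library was left out, lowest without control replicate 3 and highest without teriflunomide replicate 3, and it also moved by over 1.5 times without control replicates 1 (248) and 2 (265), teriflunomide replicate 2 (644) and lurbinectedin replicates 2 (629) and 3 (622). Across all genes the teriflunomide changes without and with lurbinectedin had a Pearson r of 0.269 and a Spearman rho of 0.384 (0.206 without teriflunomide replicate 3), a description across genes that are not independent replicates.

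The part of the teriflunomide change seen on top of lurbinectedin differed with what lurbinectedin itself did to the gene. Of genes raised by teriflunomide, the 277 that lurbinectedin also raised had a median change of 0.08 on top of it, the 142 with no lurbinectedin call had 0.20, and the 228 that lurbinectedin lowered had 0.33. Their medians with teriflunomide alone were alike, at 0.80, 0.74 and 0.77. Of genes lowered by teriflunomide, the 127 that lurbinectedin raised had -0.28, the 105 without a call -0.20 and the 123 that lurbinectedin also lowered -0.09, against -0.60, -0.70 and -0.60 with teriflunomide alone. This split uses the lurbinectedin libraries that also enter the change to the combination, so the order of these medians is a description with no test. Among the 277, 33 were called for the departure, and among the 228 none were.

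The lurbinectedin change had a similar size with and without teriflunomide. Lurbinectedin alone changed 11953 genes (71.6%), and from teriflunomide to the combination 11835 (70.9%) changed, 5870 upward (35.2%) and 5965 downward (35.8%). From control to the combination 11418 (68.4%) changed, 34.1% of all genes upward and 34.4% downward. The 5999 genes that rose with lurbinectedin alone had a median change of 1.10, and 1.01 in the presence of teriflunomide. The 5954 that fell (35.7%) had -1.42 and -1.29. Across all genes these changes had a Pearson r of 0.952.

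The genes with the largest change with teriflunomide alone were chosen by that change, so smaller values on top of lurbinectedin are partly built in. DUSP6, NECTIN4 and DRAXIN had the 3 largest rises among called genes whose control or teriflunomide mean reached 5 CPM, and their changes on top of lurbinectedin were 0.23, 0.00 and 0.16. Among the largest falls, H4C3, a replication-dependent histone H4 gene, changed by -1.63 alone and -0.37 on top of lurbinectedin, with a departure of 1.26 that was not called (adjusted p = 0.1599; 1.06 and adjusted p = 0.0249 in the 10-library fit). DDN, which encodes dendrin, read 45.5, 44.8 and 46.3 CPM in control, 19.5, 16.4 and 9.16 CPM with teriflunomide, 34.6, 26.8 and 30.7 CPM with lurbinectedin and 19.9 to 22.2 CPM with the combination. All combination libraries of DDN lay below all lurbinectedin libraries, a change of -0.54 against -1.60 without lurbinectedin, with a departure of 1.05 (adjusted p = 0.195), or 0.84 (adjusted p = 0.001398) in the 10-library fit. ATAD3B, a mitochondrial membrane ATPase, changed by -1.21 and -0.31, and its level in teriflunomide replicate 3 was 5.66 CPM against 16.2 and 15.9 CPM in the other two.

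DHODH, the target of teriflunomide, and DNM1L had no called departure. DHODH read 18.3, 17.8 and 19.2 CPM in control, 13.1, 12.96 and 11.9 CPM with teriflunomide, 26.9, 23.5 and 24.2 CPM with lurbinectedin and 16.5, 20.5 and 19.7 CPM with the combination. In both settings teriflunomide libraries lay lower without overlap, by -0.54 without lurbinectedin (adjusted p = 0.0186) and -0.40 with it (unadjusted p = 0.00453, adjusted p = 0.172), a departure of 0.15 (SE 0.165, adjusted p = 0.832). DNM1L read 231, 244 and 236 CPM in control, 225, 235 and 334 CPM with teriflunomide, 174, 188 and 191 CPM with lurbinectedin and 223, 220.0 and 193 CPM with the combination. Teriflunomide replicate 3 stood far above all other libraries, and the departure was 0.04 (SE 0.186, adjusted p = 0.965), or 0.25 without that replicate (adjusted p = 0.202). Of 13 fission genes and 13 fusion genes 0 were called with all libraries, and their median departures were 0.04 and 0.05. In the 10-library fit these medians were 0.01 and 0.00, and 2 genes of each list were called above additivity. They were DNM2, a dynamin, with 0.45 (adjusted p = 0.00593), SPIRE1, an actin nucleator, with 1.18 (adjusted p = 0.00813), OPA1, the GTPase of inner membrane fusion, with 0.55 (adjusted p = 0.0133), and CHCHD3, a subunit of the cristae organising complex, with 0.74 (adjusted p = 0.00986). DNM1L had 0.22 there (adjusted p = 0.177). Of all genes, 5.88% were called above additivity in that fit, so 2 of 13 is not read as a result about either list.

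The 19 tested genes of pyrimidine synthesis and salvage had 0 called and a median of -0.01 with all libraries. That median was -0.20 without teriflunomide replicate 3, 0.12 without teriflunomide replicate 1 and -0.16 in the 10-library fit, so its sign depends on single libraries. In the 10-library fit 3 of the 19 were called, all below additivity: UMPS, which makes UMP from orotate, with -0.39 (adjusted p = 0.0192), the uridine kinase UCK1 with -0.51 (adjusted p = 0.00737) and thymidylate synthase, TYMS, with -0.33 (adjusted p = 0.0216). DHODH had 0.05 there (adjusted p = 0.868). Of all genes, 4.97% were called below additivity in that fit, and a count of 3 is too small to read as a result about the list.

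Among lists with no called gene in the fit of all libraries, some medians lay away from that of all genes. The 13 protein genes of the mitochondrial genome had a median departure of -1.10, with 2 below additivity at an unadjusted p under 0.05 (all genes: 5.07%). The median departure depends on single libraries: it was -0.01 without teriflunomide replicate 3 and -1.575 without combination replicate 2. It was -0.60 in the 10-library fit, where 7 of the 13 were called below additivity. That fit left out 2 libraries for their high mitochondrial share, which narrows the spread of these very genes. Its calls for them are therefore no test. MT-CO1, a catalytic subunit of cytochrome c oxidase, read 15550.0, 15360.0 and 41060.0 CPM in the 3 teriflunomide libraries and 28180.0, 54950.0 and 24550.0 CPM in the 3 combination libraries, so replicate 3 of the former and replicate 2 of the latter stand over their groups. The share of counts on mitochondrial genes rose by 6.37 percentage points from control to teriflunomide and by 1.68 from lurbinectedin to the combination, a departure of -4.68 points, or -3.65 without the 2 libraries.

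Cytosolic ribosomal proteins had a median departure of -0.29, negative in 50 of 51, with 0 called. Below additivity 17 had an unadjusted p under 0.05 (all genes: 5.07%). The median change of the 51 was -0.10 with teriflunomide alone and -0.38 on top of lurbinectedin. Lurbinectedin alone raised 49 of them (all genes: 36% called higher), with a median of 0.70. RPS4X, a protein of the small ribosomal subunit, read 1359, 1173 and 1224 CPM with lurbinectedin and 938, 980.4 and 984 CPM with the combination, without overlap, and had a departure of -0.47 (SE 0.1205, adjusted p = 0.172). Nuclear subunits of the respiratory chain moved in the same direction, with a median of -0.16 and 65 of 76 below 0. Below additivity 12 of the 76 had an unadjusted p under 0.05 (all genes: 5.07%). The medians of all 76 were -0.11 with teriflunomide alone and -0.27 on top of lurbinectedin. The median departure of the respiratory subunits was -0.28 without teriflunomide replicate 3, -0.09 without teriflunomide replicate 1 and -0.02 with library size as the only scaling, which moves the median of all genes to 0.16. In the 10-library fit the median was -0.42 for the ribosomal proteins, with 43 of 51 called, and -0.26 for the respiratory subunits, with 19 of 76 called, in both lists all below additivity. Of all genes, 4.97% were called lower in that fit. RPS4X had -0.51 there (adjusted p = 0.00246).

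Cholesterol synthesis and uptake genes had a median departure of -0.29, with 21 of 23 below 0 and 0 called. Below additivity 8 had an unadjusted p under 0.05 (all genes: 5.07%). Teriflunomide alone raised 4 of the 23 (all genes: 3.88% called higher), with a median change of 0.14, and the median on top of lurbinectedin was -0.09. FDFT1, squalene synthase, read 261, 268 and 261 CPM in control, 349, 331 and 334 CPM with teriflunomide, 172, 174 and 179 CPM with lurbinectedin and 161, 149 and 181 CPM with the combination. Teriflunomide raised it in the absence of lurbinectedin, the combination overlapped lurbinectedin, and the departure was -0.46 (adjusted p = 0.196). The median of the cholesterol list was -0.40 in the 10-library fit, and 13 of the 23 were called, all below additivity (all genes: 4.97%). The 13 included FDFT1 with -0.40 (adjusted p = 0.0104). Interferon-stimulated genes had a median of -0.25 over 16 tested, with 3 below additivity at an unadjusted p under 0.05 (all genes: 5.07%). IFIT3, an interferon-induced antiviral protein, had a departure of -0.79 (adjusted p = 0.0901) from teriflunomide changes of 0.72 and -0.07, and -0.69 (adjusted p = 0.00184) in the 10-library fit. Mitotic genes, with a median of 0.00, endoplasmic reticulum stress genes, with 0.05, and DNA replication genes, with 0.04, lay near the median of all genes. Of the 43 called genes, 15 were on at least 1 of the 28 lists of pathways and processes and 28 were on none.

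**Figure D5:**
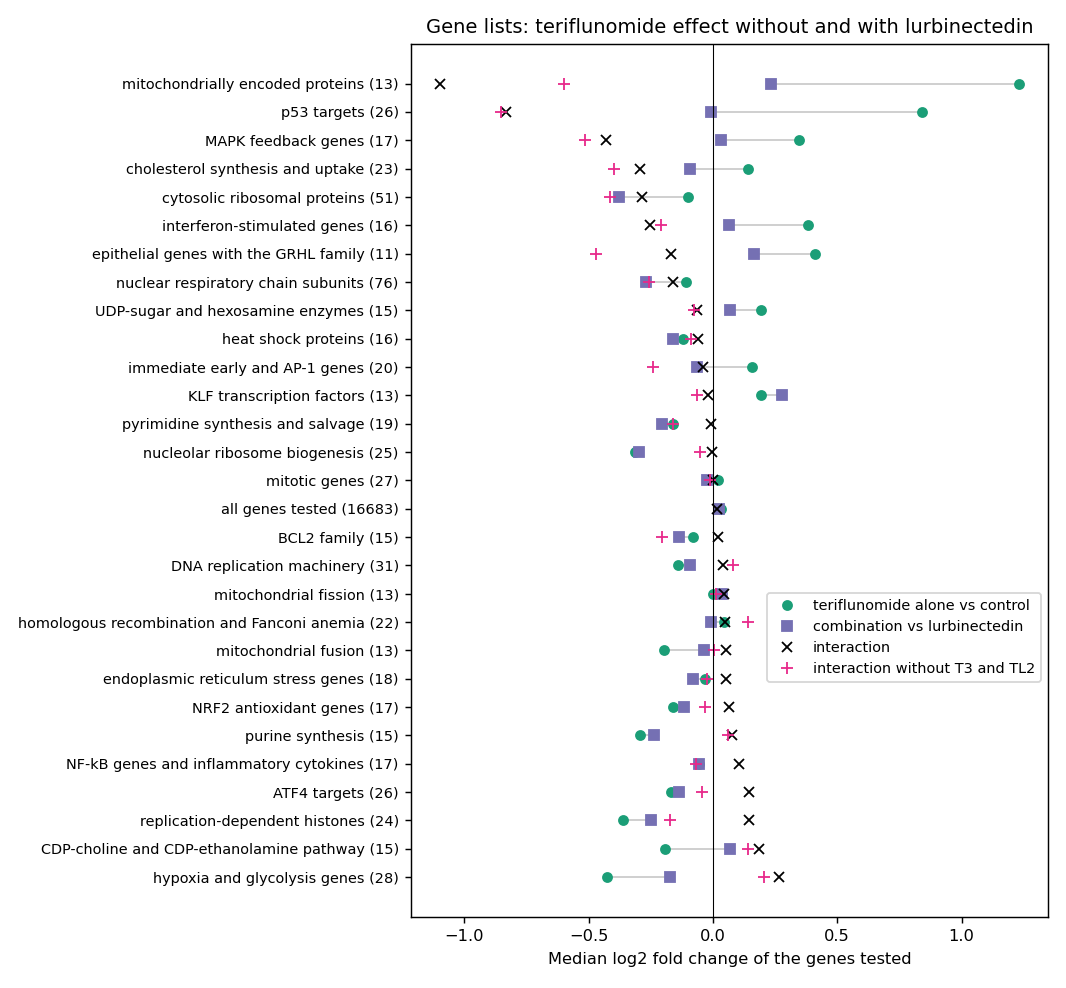
Median log2 change of the tested genes of each list for teriflunomide alone (circle), for teriflunomide on top of lurbinectedin (square) and for the departure from additivity with all libraries (cross) and without teriflunomide replicate 3 and combination replicate 2 (plus), with the number of genes tested in brackets. The p53 targets go from 0.84 to -0.01. For the mitochondrially encoded proteins the cross at -1.10 and the plus at -0.60 lie far apart.

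The threshold fell just after ATF3 (adjusted p = 0.0475) and ZNF563, a zinc finger gene (adjusted p = 0.0496). Among the uncalled genes nearest to it below additivity were GTF2H5, a subunit of the repair and transcription factor TFIIH, with -0.80 (adjusted p = 0.0562), CREM, a cyclic AMP responsive factor, with -0.92 (adjusted p = 0.0602), STK17A, a kinase linked to apoptosis, with -1.01 (adjusted p = 0.0602) and POLH, a translesion polymerase, with -0.66 (adjusted p = 0.06298). Above additivity such genes were SNHG4, a host gene of small nucleolar RNAs, with 0.90 (adjusted p = 0.0602), and MIDEAS, a subunit of a mitotic deacetylase complex, with 0.68 (adjusted p = 0.0901). SNHG3, another host gene, had 0.78 (adjusted p = 0.113). These 7 genes were all called in the 10-library fit, with the same signs, where 10.9% of all genes were called. They were named for their small p in all libraries, most of which that fit reuses, so these calls are no separate support.

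A different pattern appeared in BMERB1, where teriflunomide made little change alone and a larger one on top of lurbinectedin. BMERB1 read 11.1, 11.2 and 9.86 CPM in control, 11.4, 11.7 and 12.8 CPM with teriflunomide, 0.242, 0.117 and 0.218 CPM with lurbinectedin and 0.688, 0.506 and 0.638 CPM with the combination. The lurbinectedin change of BMERB1 was -5.79 on the log2 scale, and every combination library lay above every lurbinectedin library. With either of these treatments BMERB1 was at most at 0.688 CPM, near the floor, so the size of its change on top of lurbinectedin is uncertain. The change on top of lurbinectedin was 1.67 (unadjusted p = 7.8e-05, adjusted p = 0.145) and the departure 1.51 (SE 0.334, adjusted p = 0.108), neither of which passed with all libraries. MIR17HG, the host transcript of the miR-17 cluster, changed by -0.56 with teriflunomide alone and 0.63 on top of lurbinectedin, a departure of 1.20 (adjusted p = 0.113). The departures in the 10-library fit were 1.67 for BMERB1 (adjusted p = 0.00942) and 1.09 for MIR17HG (adjusted p = 0.0149).

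The departure was also set beside the length of the gene. In 5 bins of genomic span with median spans of 2.02, 10.1, 24.7, 52.7 and 146 kb, the median departure was 0.00, -0.02, -0.03, 0.01 and 0.14, and 6, 12, 10, 10 and 5 of the 43 genes fell in them. In the bin of the longest genes the median change was 0.15 with teriflunomide alone and 0.27 on top of lurbinectedin. The median departure of that bin was 0.06 without combination replicate 1, 0.23 and 0.21 without teriflunomide replicate 3 or combination replicate 2, and 0.28 without these 2 libraries.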

How the data were processed

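RNA was purified from SBC3 spheroids in 12 libraries and sequenced after selection of mRNA, per the labels' protocols. The authors deposited 1 table of raw gene-level read counts per library, with 60649 genes. The submitters' processing notes name fastp 0.23.2, STAR 2.7.9, Subread, featureCounts and hg38. The annotation release, the use of strand and the handling of multi-mapping reads are not given in the sources used here. The 37318 identifiers with the same version in GENCODE 29 have identical coordinates there. Symbols came from a name table that matched 60463 identifiers (99.7%).

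Genes were kept by filterByExpr (16683), scaled by TMM and fitted with edgeR 4.0.16 in R 4.3.3 (quasi-likelihood, robust, 1 mean per group, biological coefficient of variation 14.5%). Calls use p-values adjusted by Benjamini-Hochberg over all genes tested, at 0.05. CPM uses the TMM library sizes, and errors are SD over 3 libraries or SE from the F statistic. Expected levels add log2 effects or CPM differences of the single drugs. Reads carry no molecular identifiers, so a count is not a number of molecules.

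The comparison, the gene lists and the rule for named genes were chosen with earlier results of these data known. That rule selected up to 15 called genes in each direction with the smallest p, and up to 8 uncalled genes in each direction with the smallest p and at least 5 CPM. It also selected 2 members of each list, DHODH, DNM1L and the 3 largest rises and falls with teriflunomide alone. The text leaves out some genes so selected, with their values known. Among these are all those of the purine, UDP-sugar, heat shock, NRF2, homologous recombination and nucleolar lists. Other called genes, and other list members, were picked for their role after their values were seen. Alternatives were DESeq2 size factors, library size as the only scaling, no filter, a filter at 1 CPM in 3 libraries, a replicate block, DESeq2 1.42.0, limma 3.58.1 (voom), an adjusted p under 0.01, each library left out in turn, teriflunomide replicate 3 and combination replicate 2 left out together, and the linear scale. The main fit used no replicate block, since the labels do not say what equal replicate numbers share.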

Additional observations from a re-analysis of the deposited data

Results flagged for a closer look

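The test of the difference itself, the interaction of the drugs in edgeR, singled out 43 genes whose teriflunomide effect differed with and without lurbinectedin. The smallest p in each direction belonged to NECTIN4, with a departure of -1.61 on the log2 scale, and CHKA, with 1.08. Teriflunomide raised NECTIN4 by 1.61 without lurbinectedin, and the change with it was 0.00. For CHKA the corresponding values were -0.96 and 0.12. The part that doses and exposure times play in these values was not tested, since the labels used here do not give them.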

How the results depend on the processing

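All 43 genes kept the sign of their log2 departure under every alternative fit in which they had a value. These fits reuse the libraries in which the 43 were chosen, so the kept signs are no separate support. On the scale of CPM differences DRAXIN (0.718 CPM) and TP53INP1 (19.4 CPM) turned positive, both within 2 SE. The 43 interaction calls became 6 with library size as the only scaling, 195 without a filter, 258 with DESeq2, 5 at an adjusted p under 0.01, 1839 without teriflunomide replicate 3 and combination replicate 2, and 2 to 616 when 1 library was left out. Of the 258 genes of DESeq2, 107 lay above and 151 below additivity, and 42 were among the 43. With library size as the only scaling the median departure of all genes moved to 0.16, and 2 of the 6 calls (33.3%) were above additivity, against 14% in the 43. The 1002 calls for teriflunomide alone became 265 with library size scaling, 1800 without a filter, 1907 with DESeq2, 230 at an adjusted p under 0.01, 2757 without the 2 libraries and 216 to 1555 when 1 library was left out. The 0 calls for teriflunomide on top of lurbinectedin became 612 without a filter, 584 with DESeq2, 3640 without the 2 libraries and 0 to 2067 when 1 library was left out. The 11953 calls for lurbinectedin stayed within 1.5 times in all settings. The cause of these shifts was not tested. Without a filter, some departures rest on counts near 0, where depth limits what can be read.

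With the replicate number as a block, 8 genes were called for the interaction and 415 for teriflunomide alone. The labels do not say that equal numbers share a culture or day. Deviations of 18 same-numbered pairs correlated between -0.402 and 0.144, with 1 pair over 0.1, and 2 of 12 libraries correlated best with their own number. With 3 libraries per group these correlations cannot show whether equal numbers share a culture or day.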
